A study of Mus musculus with 4 samples.

Results

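Potassium channels carry the current that sets the resting potential of muscle and nerve and ends each action potential. A channel is built from pore-forming subunits, which are opened by voltage (most of the Kcna, Kcnb, Kcnc, Kcnd, Kcnh and Kcnq genes), by calcium or sodium ions (Kcnma, Kcnn, Kcnt), pass current mainly inward (Kcnj) or leak at rest (the 2-pore Kcnk genes). Small auxiliary subunits (Kcnab, Kcne, Kcnip, Kcnmb) bind to them and change their gating or their transport to the membrane. The members described here were all probe sets, groups of short oligonucleotides that report 1 transcript, whose platform annotation gives 1 gene symbol starting with Kcn. There were 167 of these for 84 genes, among 45101 probe sets on the array. Of the 84 genes, 3 are non-coding RNAs named after a channel gene they lie beside.

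RNA of mouse left hemi-diaphragm, one side of the main breathing muscle, was measured on 4 arrays. A pair came from the synaptic region, the band where the motor nerve meets the fibres, and another pair from the non-synaptic region of the muscle. The sources used here give no strain, age, genotype or treatment. They also do not say that the 2 arrays per region stem from different animals, and the spread behind each p-value may therefore be technical. Values are the deposited intensities, raised to a floor of 7.31 on the log2 scale where lower, and differences are synaptic minus non-synaptic on that scale, with the standard error of the limma fit. A probe set was tested when its mean log2 value over the 4 arrays was at least 8.87.

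The labelled tissue was checked against its markers. All 8 skeletal muscle fibre markers were measured, with summed intensities of 1187156 and 1030604 on the synaptic arrays and 1082008 and 1164112 on the non-synaptic arrays. Of these, Myh4, a fast myosin heavy chain, was lower on both synaptic arrays, by -1.32 ± 0.18. The myosin heavy chains Myh1 and Myh2 of the same list differed by 0.09 and 0.15, with the regions overlapping. Of 5 genes of synaptic nuclei, Chrne, Chrna1, Ache and Etv5 were higher on both synaptic arrays and Musk differed by 0.28 ± 0.32. Median intensities ranged from 658 to 769 per array, and between 18.7% and 21.3% of probe sets lay at the floor.

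Of the 56 Kcn probe sets bright enough to test, 18 had the regions apart with the synaptic pair higher and 2 with it lower. The shares were 32.1% and 3.57%, against 9.89% and 9.98% of all probe sets tested. Of the 111 dimmer ones the counts were 11 and 7, or 9.91% and 6.31%. These shares were near the 9.57% and 8.60% of all named probe sets below the filter. Kcne1l, the auxiliary subunit now called Kcne5, had the largest difference of the family, at 3.69 ± 0.26 or 12.9-fold. The nerve-type pore subunits Kcna1 and Kcna2 followed with 2.08 ± 0.28 and 1.26 ± 0.36, and the leak channels Kcnk1 and Kcnk2 with 1.31 ± 0.29 and 1.02 ± 0.38. In each of these 5 genes the lower synaptic array exceeded the higher non-synaptic array. The list of channels known from muscle fibres holds Kcne1l, Kcna1 and Kcnk2, and also Kcnq5, higher by 0.44 with the regions apart. Of its other members, Kcnj11, Kcna7 and Kcnc1 had differences of 0.02, -0.03 and 0.20, Kcne4 0.30 and Kcnn2 -0.54. The regions overlapped for these 5.

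By limma with Benjamini-Hochberg adjustment over 26480 probe sets, 0 of the 56 tested Kcn probe sets passed in either direction, against a background of 0.00378% higher and 0.00755% lower. At an unadjusted p under 0.05, 9 of the 56 were higher, from 6 genes, and 0 were lower, where the background was 0.653% higher and 0.332% lower. The regions were apart, with the synaptic pair higher, for 18 of the 56 and lower for 2, against 9.89% and 9.98% of all probe sets tested. With a difference of at least 1.5-fold as well, 12 were higher and 0 lower, against 1.74% and 1.34%. The median difference was 0.13 over the 56 probe sets, with 36 above and 20 below 0, beside -0.01 over all probe sets tested. Read from 1 probe set per gene, the one with the highest mean, the median of 35 genes was 0.06, and from the mean of each gene's tested probe sets it was 0.17. These 56 are the members whose mean passed the filter on low values, which a probe set can do through 1 region alone, and several of the 9 belong to the same gene. With 1 array left out the regions were apart for 23 to 31 probe sets higher and 11 to 14 lower, where 54 to 61 were tested. Then 3 arrays set the order, so regions lie apart more readily. No share over all probe sets stands beside these counts, and they are not compared with those above.

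**Figure D1:**
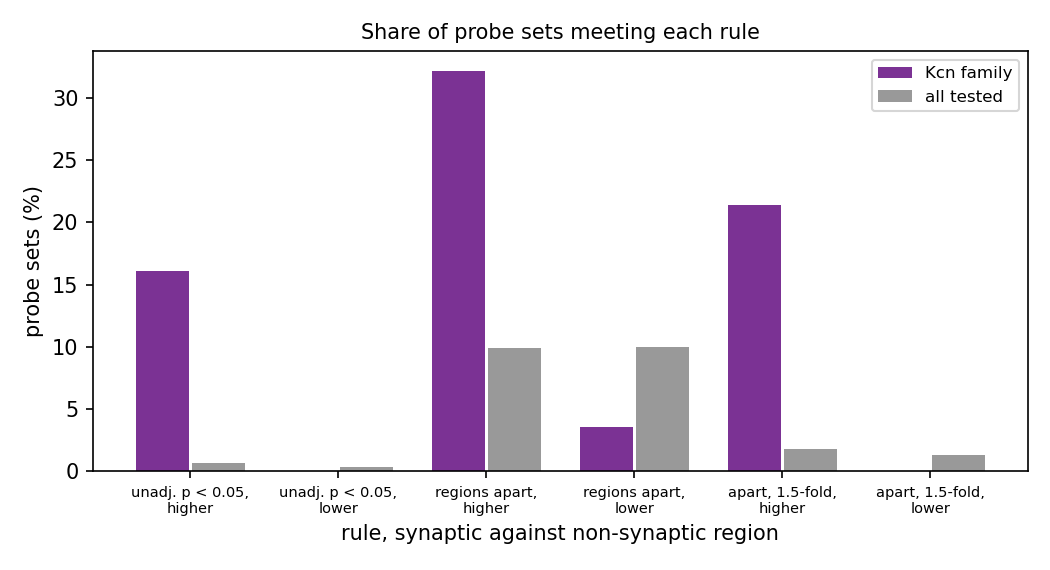
Percentage of probe sets meeting each rule in the comparison of the regions, for the 56 tested Kcn probe sets (purple) and all 26480 tested probe sets (grey). Among the 3 rules drawn for higher values the Kcn share was above that of all probe sets, 16.1% against 0.653% at an unadjusted p under 0.05, and it was below it in the 3 rules for lower values. The adjusted rule, with 0 Kcn probe sets, is not drawn.

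Kcne1l had deposited intensities of 9231 and 12733 on the synaptic arrays (replicates 1 and 2) and 753 and 931 on the non-synaptic arrays. The regions did not overlap, and neither non-synaptic array was near the floor. The gene had 1 probe set on the array and encodes a small protein that crosses the membrane once and slows or silences voltage-gated channels such as those of Kcnq1. Its difference of 3.69 ± 0.26 had an unadjusted p of 2.57e-05 and a limma adjusted p of 0.0963. Leaving out replicate 1 or replicate 2 of the synaptic region gave adjusted limma p-values of 0.0486 and 0.0175, and leaving out replicate 1 or replicate 2 of the non-synaptic region gave 0.33 and 0.149. In each of these fits 1 region has a lone array, which is assumed to vary like the pair of the other region, so they are no independent check. Centring each array on its median gave 0.0266. The difference ranged from 3.46 to 3.93 over 13 alternative settings.

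The genes beside Kcne1l on the X chromosome had smaller differences. In the RefSeq order of protein-coding genes, Nxt2 precedes it, with a difference of -0.43 ± 0.43, and Acsl4, which activates long fatty acids, follows with -0.12 ± 0.25. Tmem164, the next, differed by -0.07 ± 0.25. Each unadjusted limma p was above 0.05. A further probe set of Tmem164, below the filter, was higher in the synaptic region by 1.30 with the regions apart.

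Of the remaining Kcne genes on the array, Kcne1, Kcne2 and Kcne3 lay below the filter. Kcne1 was at the floor on all arrays with both of its probe sets. Kcne2 had log2 values of 7.54 and 7.31 in the synaptic region and 8.29 and 7.31 in the non-synaptic region, and Kcne3, a partner of Kcnc4 in muscle, had 7.41 and 8.47 against 8.02 and 7.90. Kcne4, which inhibits voltage-gated channels, was measured at 10.61 and 11.41 against 10.62 and 10.81, a difference of 0.30 ± 0.33. Its synaptic replicate 1 lay at the level of the non-synaptic arrays, so the regions overlapped.

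Kcna1 encodes a Shaker-type pore subunit known best from myelinated axons, where it clusters beside the nodes. Its probe set with the highest mean had log2 values of 12.80 and 13.26 in the synaptic region and 10.72 and 11.17 in the non-synaptic region. The regions lay apart. The difference of 2.08 ± 0.28 was 4.24-fold (unadjusted p = 0.000561, limma adjusted p = 0.492). Further probe sets gave 1.78 ± 0.20 and 1.97 ± 0.25, with the regions apart in each. The last one, at 8.64 and 9.53 against 9.04 and 8.64, gave 0.25 ± 0.45 and its regions overlapped. The difference of the first probe set was between 1.85 and 2.32 over 13 alternative settings, with an unadjusted p under 0.05 in all 13.

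Kcna1 stands between Kcna5 and Kcna6 on chromosome 6, and these neighbours did not differ in the same way. Kcna5, a pore subunit of muscle and vessels, was at 12.81 and 12.97 in the synaptic region and 12.89 and 13.12 in the non-synaptic region, a difference of -0.11 ± 0.19. The regions overlapped. The brightest probe set of Kcna6, another nerve-type subunit, gave 0.03 ± 0.33 and its second gave 0.48 ± 0.37. Another probe set of Kcna6, below the filter, read 9.13 and 8.97 against 7.76 and 8.46. The synaptic arrays were thus the higher pair on 2 of the 3 probe sets of Kcna6, by less than for Kcna1.

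Kcna2, the usual partner of Kcna1 in axonal channels, was at 10.28 and 10.40 on the synaptic arrays and at 9.45 and 8.71 on the non-synaptic arrays. The difference of 1.26 ± 0.36 had an unadjusted p of 0.0163 (limma adjusted p = 0.9999). Another probe set read 10.37 and 10.17 against 8.60 and 8.44, a wider gap of 1.75 ± 0.31 (unadjusted p = 0.00213, limma adjusted p = 0.9999). A further one gave -0.02 ± 0.30 with the regions overlapping, so its probe sets disagreed. Kcna3, next to Kcna2 on chromosome 3, lay below the filter with log2 values from 7.31 to 8.34.

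**Figure D2:**
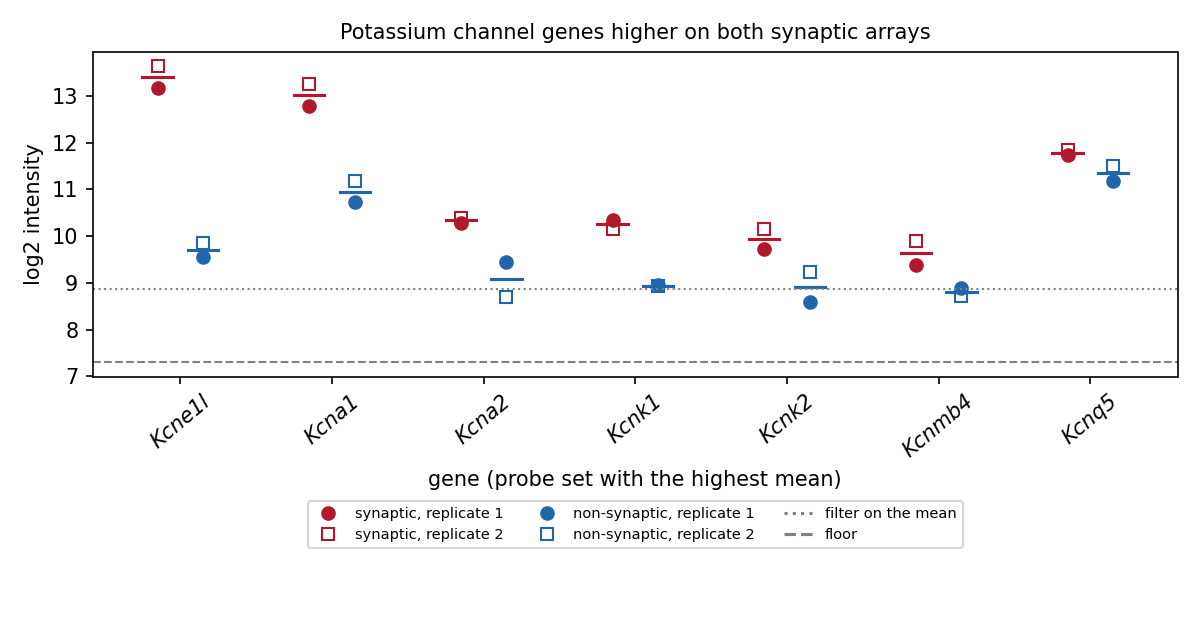
Log2 intensity on each array for 7 of the tested genes with both synaptic arrays above both non-synaptic arrays, each read from its brightest probe set. Kcnh2 and Kcnt1, also higher on both synaptic arrays on their brightest probe sets, by 0.45 and 0.29, are not drawn. Red points are synaptic and blue points non-synaptic arrays, filled circles replicate 1, open squares replicate 2, and short lines region means, with the floor and the filter as dashed and dotted lines. Among the 7 drawn, the gap is widest for Kcne1l, at 3.69, and narrowest for Kcnq5, at 0.44.

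On their brightest probe sets, the regions overlapped for the remaining voltage-gated pore subunits tested, except Kcnq5 and Kcnh2. Kcnh2 read 10.37 and 10.13 against 9.70 and 9.90, a difference of 0.45 ± 0.27 (unadjusted p = 0.153, limma adjusted p = 0.9999). Kcnq5, whose channels carry a slow current that damps firing, read 11.73 and 11.83 against 11.19 and 11.50, a difference of 0.44 ± 0.22 (unadjusted p = 0.104, limma adjusted p = 0.9999). Its second probe set gave 0.64 ± 0.24 (unadjusted p = 0.0411, limma adjusted p = 0.9999), and the synaptic arrays were the higher pair on both. Kcna4, another Shaker-type subunit, differed by 0.58 ± 0.45 with its regions overlapping. Of 4 probe sets of Kcnh3, 3 were tested, and they gave 0.14, 0.21 and 0.70. The last of these had a non-synaptic replicate 2 at 7.97 while its other 3 arrays lay between 9.25 and 9.37. In all, 28 probe sets of 15 voltage-gated genes were tested. At an unadjusted limma p under 0.05, 6 were higher, from Kcna1, Kcna2 and Kcnq5, and 0 lower. Over all probe sets tested, 0.653% were higher and 0.332% lower at that p.

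**Figure D3:**
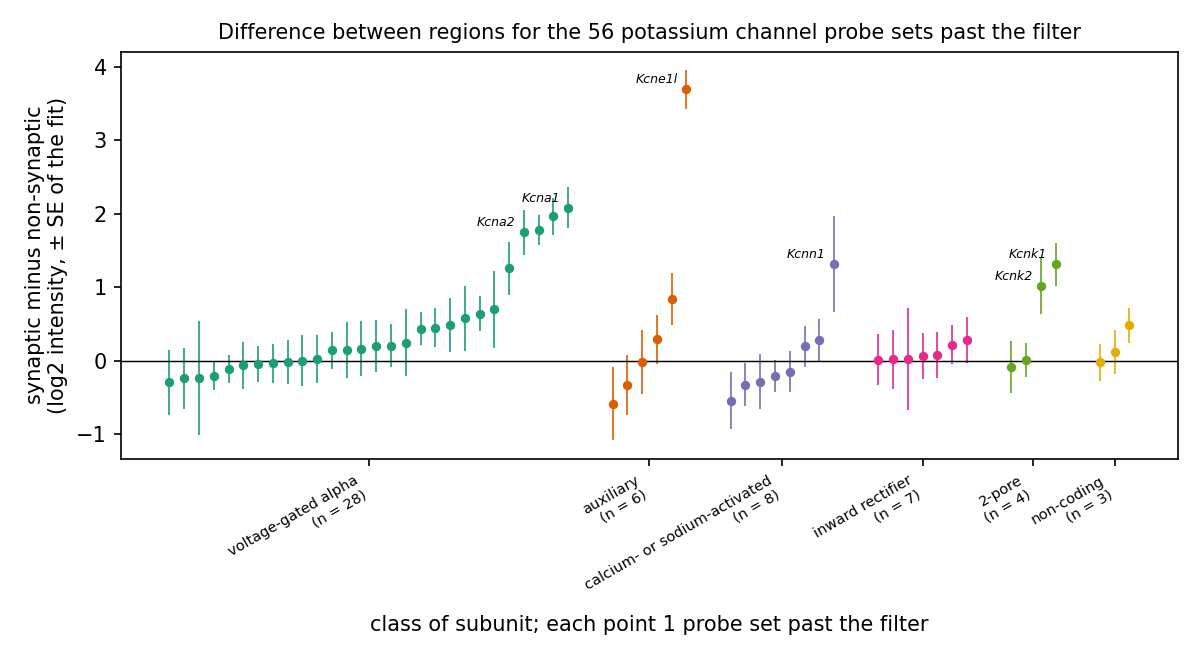
Synaptic minus non-synaptic difference in log2 intensity, with the standard error of the limma fit, for each of the 56 Kcn probe sets past the filter, grouped by class of subunit and sorted within a class. Gene names mark the highest probe set of each gene above 1, and Kcne1l stands above all others at 3.69.

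Among the leak channels, 4 of 12 genes were measured. Kcnk1, a weakly conducting 2-pore subunit, was at 10.34 and 10.16 in the synaptic region and 8.95 and 8.93 in the non-synaptic region. A second probe set, below the filter, differed by 0.17. The gap of 1.31 ± 0.29 between the pairs exceeded the spread within either (unadjusted p = 0.00552, limma adjusted p = 0.9999). Kcnk2, a channel opened by stretch and lipids, read 9.72 and 10.15 against 8.60 and 9.23, a difference of 1.02 ± 0.38 (unadjusted p = 0.0423, limma adjusted p = 0.9999). Its lowest synaptic array was above its highest non-synaptic array by less than the gap between the non-synaptic arrays, and it kept an unadjusted p under 0.05 in 9 of the 12 alternative settings that measured it. Kcnk6 differed by 0.01 ± 0.24 and Kcnk16 by -0.09 ± 0.35. Coa6, near Kcnk1 on chromosome 8, differed by 0.07 ± 0.21.

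The promoters of these genes are shown because the genes of the synapse are known for an N-box, with the core letters CCGGAA, to which ETS factors bind, and for E-boxes, with the letters CANNTG, to which myogenic factors bind. Each window runs from 250 bases before to 50 bases after the start of the gene in RefSeq (GRCm38.p6), and capitals mark either motif, searched on both strands. The windows of Kcne1l (chrX:142306149-142306448, minus strand), Kcna2 (chr3:107101317-107101616, plus strand) and Kcnk1 (chr8:125994852-125995151, plus strand) hold E-box letters only. The fourth window of Kcnk2 (chr1:189343304-189343603, minus strand) holds the reverse complement of the N-box core, at -89 from the start.
Kcne1l: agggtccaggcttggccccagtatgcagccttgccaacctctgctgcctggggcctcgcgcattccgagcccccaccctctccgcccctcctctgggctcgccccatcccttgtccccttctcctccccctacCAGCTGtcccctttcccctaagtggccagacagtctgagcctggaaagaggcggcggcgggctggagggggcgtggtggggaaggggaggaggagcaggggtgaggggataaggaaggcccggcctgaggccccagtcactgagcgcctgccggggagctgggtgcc
Kcna2: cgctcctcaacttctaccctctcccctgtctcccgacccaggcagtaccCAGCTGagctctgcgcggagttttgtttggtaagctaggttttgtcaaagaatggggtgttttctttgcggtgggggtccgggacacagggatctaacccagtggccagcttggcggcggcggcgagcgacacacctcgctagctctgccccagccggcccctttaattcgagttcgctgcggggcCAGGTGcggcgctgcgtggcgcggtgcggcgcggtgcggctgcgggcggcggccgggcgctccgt
Kcnk1: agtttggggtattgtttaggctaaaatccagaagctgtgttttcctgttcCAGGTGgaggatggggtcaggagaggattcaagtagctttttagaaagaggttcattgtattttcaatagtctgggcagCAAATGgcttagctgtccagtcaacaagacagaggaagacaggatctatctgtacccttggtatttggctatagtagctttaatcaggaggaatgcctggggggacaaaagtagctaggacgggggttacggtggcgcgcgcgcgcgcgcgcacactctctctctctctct
Kcnk2: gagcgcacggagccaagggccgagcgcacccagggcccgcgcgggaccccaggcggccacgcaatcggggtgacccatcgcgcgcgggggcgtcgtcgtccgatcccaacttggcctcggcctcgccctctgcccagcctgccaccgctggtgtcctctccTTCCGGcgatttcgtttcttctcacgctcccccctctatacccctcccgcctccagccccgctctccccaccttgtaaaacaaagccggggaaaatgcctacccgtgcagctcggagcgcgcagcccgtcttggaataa
The N-box core was found in 7 of 89 windows of 64 Kcn genes, or 7.87%, and in 14.9% of all 32851 windows. The E-box letters were in 73.0% of the Kcn windows and in 72.3% of all windows. The genes with the N-box core in a window were Kcnk2, Kcne4, Kcnh7, Kcnd2, Kcnj16, Kcnh5 and Kcnip2. Of these Kcnk2 and Kcne4 were measured above the filter. Neither window of Kcnq5 held either motif.

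Among the other auxiliary subunits, Kcnmb4, which slows the large calcium-activated channel, read 9.39 and 9.90 in the synaptic region and 8.88 and 8.73 in the non-synaptic region. The synaptic arrays were the higher pair, by 0.84 ± 0.35 (unadjusted p = 0.0628, limma adjusted p = 0.9999). Kcnab1, a cytoplasmic subunit of the Shaker-type channels, was at 9.10 and 10.41 against 10.10 and 10.57, a difference of -0.58 ± 0.50. Its synaptic replicate 1 was the low array and the regions overlapped. Kcnab2, which binds the same axonal channels as Kcna1 and Kcna2, lay below the filter, at 7.62 and 9.14 against 9.29 and 8.86. Of 15 auxiliary genes 6 were measured, and Kcne1l alone had an unadjusted limma p under 0.05.

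The calcium- or sodium-activated pore subunits had no member with an unadjusted limma p under 0.05 among 8 probe sets of 4 genes. Kcnma1, the large-conductance channel, gave 0.20 ± 0.28 on its brightest probe set and -0.21, -0.32 and -0.28 on the next 3. The synaptic arrays were the lower pair on the probe set at -0.21, and the regions overlapped on the rest of these. Kcnn2, a small-conductance channel, read 9.03 and 9.78 against 9.73 and 10.16, a difference of -0.54 ± 0.38 with the regions overlapping. Kcnn3, of the same kind and known to appear in denervated fibres, was at the floor on 3 arrays and at 7.67 on non-synaptic replicate 1. Kcnn1 gave -0.15 ± 0.28 on one probe set and 1.31 ± 0.65 on the other, whose non-synaptic replicate 2 was at 7.49 and its other 3 arrays between 9.21 and 9.92. Kcnt1, a sodium-activated channel, differed by 0.29 ± 0.29 on its only tested probe set. Below the filter, another probe set read 8.40 and 8.07 against 8.55 and 8.58, with the synaptic pair lower, by -0.33. A further one gave -0.25 with the regions overlapping.

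**Figure D4:**
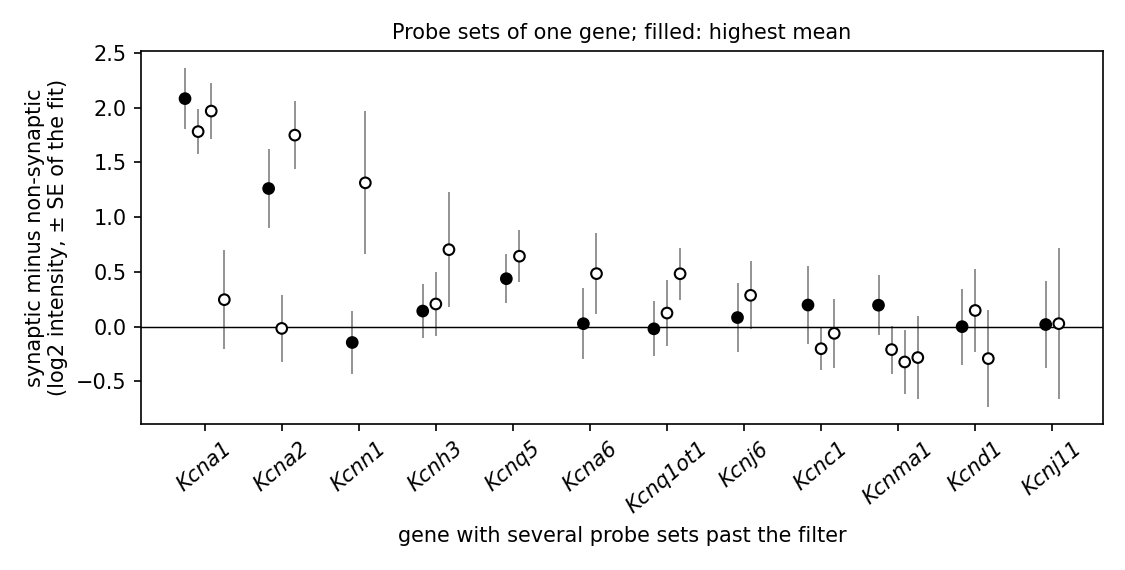
Synaptic minus non-synaptic difference in log2 intensity, with the standard error of the limma fit, for the 12 genes with several probe sets past the filter. Filled points are the probe set with the highest mean, and the probe sets of Kcna1, Kcna2 and Kcnn1 spread the widest, over 1.84, 1.77 and 1.46.

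The probe sets of 1 gene did not always point the same way. Of the 12 genes with several tested probe sets, 6 had differences of 1 sign and 6 of both signs. Kcna1, Kcnq5, Kcna6, Kcnh3, Kcnj6 and Kcnj11 were those of 1 sign.

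The inward rectifiers bright enough to test, 7 of 31 probe sets, had small differences. Kcnj11, the pore of the ATP-sensitive channel of muscle, read 14.13 and 13.17 against 13.97 and 13.30, a difference of 0.02 ± 0.40. Its arrays differed by replicate number more than by region. Kcnj8, the matching pore of vessel walls, was at 12.13 and 12.87 against 12.19 and 12.78, again with the regions overlapping, and differed by 0.02 ± 0.35. Kcnj12, a strong rectifier that holds the resting potential, differed by 0.22 ± 0.26. Kcnj2, its close relative, lay below the filter with replicate 1 of both regions at the floor and replicate 2 at 9.05 and 9.21. The 7 tested probe sets of 5 inward rectifier genes gave from 0.02 to 0.29, none with an unadjusted limma p under 0.05. Of the 24 below the filter, 3 had the regions apart, all with the synaptic pair higher. These were Kcnj10 by 1.29, a probe set of Kcnj6 by 1.02 and Kcnj14 by 0.59. Over all 12766 named probe sets below the filter, 9.57% were apart with the synaptic pair higher and 8.60% with it lower.

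The channels known from muscle fibres were thus mixed. Of 22 listed, 21 were on the array and 14 were measured, with a median difference of 0.20. Of the 14, 3 were higher at an unadjusted limma p under 0.05, namely Kcne1l, Kcna1 and Kcnk2, and 0 were lower. The shares over all probe sets tested were 0.653% higher and 0.332% lower. This list was chosen with earlier results of these data known, so the counts are no independent support. Kcna7, a pore subunit of muscle, read 12.79 and 13.25 against 12.82 and 13.28, a difference of -0.03 ± 0.26. Kcnc1, a subunit for fast repolarization, was at 13.55 and 13.12 against 13.59 and 12.69, a difference of 0.20 ± 0.35, while its second probe set gave -0.20 ± 0.19. Kcnc4, of the same subfamily, varied most, at 11.83 and 9.57 against 11.35 and 10.52, so its difference of -0.24 ± 0.78 is poorly determined. The regions overlapped for these 3 genes on the probe sets with the highest means, but the second probe set of Kcnc1 had them apart. Kcnq1 differed by -0.24 ± 0.41.

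**Figure D5:**
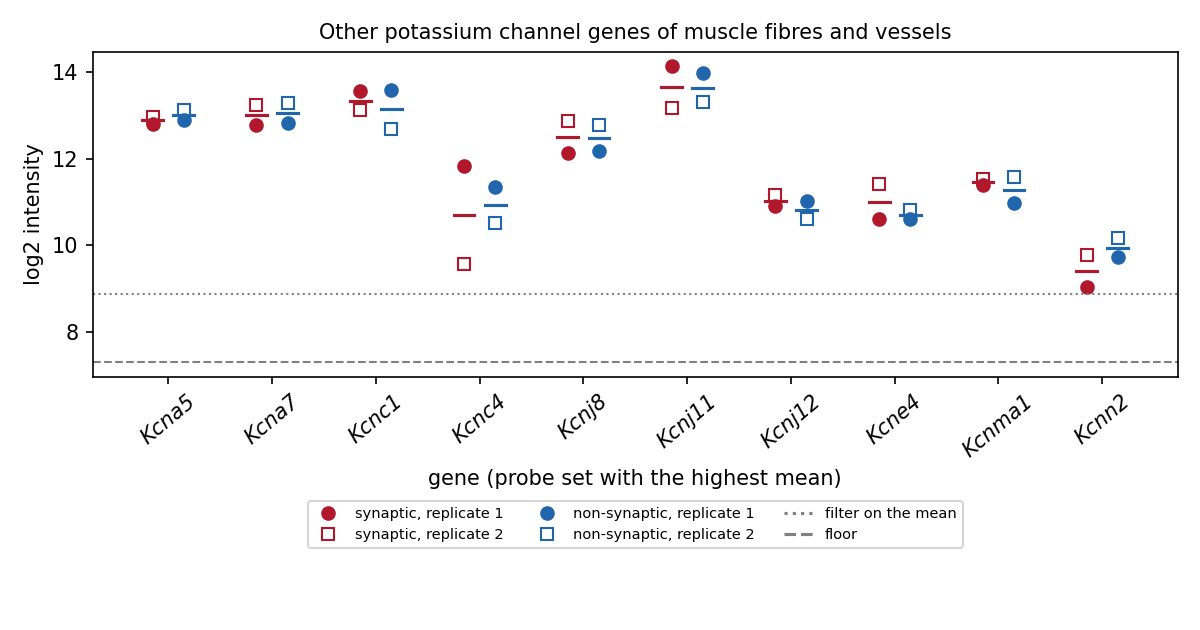
Log2 intensity on each array for 10 further genes known from muscle fibres or vessels, each read from its brightest probe set, with symbols for region and replicate number (red synaptic, blue non-synaptic, filled circles replicate 1, open squares replicate 2) and short lines for region means. The regions overlap for each of the 10 genes, and Kcnc4 spreads from 9.57 to 11.83.

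Of 13 channels known from myelinated nerve and Schwann cells, 12 were on the array and 5 were measured. Of these, Kcna1, Kcna2 and Kcnk1 were higher at an unadjusted limma p under 0.05, 0 were lower, and the median was 1.26. Over all probe sets tested, 0.653% were higher and 0.332% lower at that p. The list was chosen with earlier results of these data known. Kcna1 is in both the muscle and the nerve list. Kcnj10, through which glia take up potassium, lay below the filter at 9.48 and 9.53 in the synaptic region and 8.03 and 8.41 in the non-synaptic region, with the regions apart. Kcnq3, a voltage-gated pore subunit of axons, also lay below it, at 8.68 and 8.65 against 7.66 and 7.68. Its second probe set was at the floor on all arrays. Of the others below the filter, Kcnk10 differed by 0.83 and Kcnc2 by -0.38, each with the regions apart. Both synaptic arrays of Kcnc2 were at the floor, so it was at least 1.31-fold lower there. Kcnab2 differed by -0.70, Kcnj13 by -0.01 and Kcnk4 by 0.26, with the regions overlapping. Second probe sets of Kcnk10 and Kcnab2 were at the floor on all arrays. Of 7 vessel channels 4 were measured, with a median of 0.02 and 0 at an unadjusted limma p under 0.05.

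Markers of Schwann cells were compared between the regions as well. Of 13 markers 9 were on the array and 8 were measured, and all 8 were higher on both synaptic arrays. Their summed intensity was 106642 and 116481 in the synaptic region and 31175 and 33281 in the non-synaptic region, and none was at the floor on all arrays. The part of Schwann cell RNA in the differences of Kcne1l, Kcna1, Kcna2, Kcnk1 and Kcnk2 was not tested, nor was that of fibre nuclei at the synapse, whose 5 markers summed to 31074 and 28099 against 7403 and 6615. Of 10 markers of axons and neurons, 7 lay below the filter, among them Nefl, Nefm, Snap25 and Tubb3, and the list summed to 4415 and 4543 in the synaptic region and 4489 and 5084 in the non-synaptic region. Markers of adipocytes were lower on both synaptic arrays for 4 of 5 measured, those of brown adipocytes for 2 of 3 (Ucp1 by -4.48), and those of smooth muscle and pericytes for 3 of 6 (Myh11 by -0.77). The part of these cells in the values of the vessel channels was not tested. In pieces of tissue, more cells of a type and more RNA per cell cannot be told apart.

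Genes that work with potassium channels were counted from a list of 42, of which 33 were on the array and 25 were measured. The list had a median of -0.01, with 12 above and 13 below 0. At an unadjusted limma p under 0.05, where the background was 0.653% higher and 0.332% lower, 1 gene was higher and 0 lower. This gene was Adam23, a membrane protein linked to the axonal Kcna1 channels, at 10.09 and 10.26 against 9.37 and 9.35, a difference of 0.81 ± 0.27 (unadjusted p = 0.0309, limma adjusted p = 0.9999). Its relative Adam22, of the same channel complex, differed by 0.17 ± 0.32. The scaffold Dlg1 differed by 0.26 ± 0.18, and Cntnap2, which gathers the channels beside the nodes, lay below the filter. Abcc9 and Abcc8, the sulfonylurea receptors that pair with Kcnj11 and Kcnj8, differed by -0.08 ± 0.15 and -0.11 ± 0.33. The 7 measured subunits and regulators of the sodium-potassium pump lay between -0.30 and 0.30. Clcn1, the chloride channel of muscle, differed by 0.11 ± 0.20.

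The other 111 Kcn probe sets lay below the filter, and 49 genes had none above it. On 29 of the 111 all 4 arrays were at the floor, which is not evidence that the transcript is absent. The regions were apart, with the synaptic pair higher, for 11 of the 111, or 9.91%, and lower for 7, or 6.31%, against 9.57% and 8.60% of all 12766 named probe sets below the filter. Kcng1, a modifier subunit, had 9.22 and 9.01 against 8.18 and 7.83, with the regions apart. Its second probe set differed by 0.05 with the regions overlapping. The widest of the lower ones was Kcnk13, a leak channel, at 7.31 and 7.63 in the synaptic region and 9.15 and 9.47 in the non-synaptic region. There, 1 synaptic array was at the floor, and another probe set of Kcnk13 was at the floor on all arrays. Kcnip1, a calcium-binding subunit, differed by -0.01 ± 0.43 on its brightest and only tested probe set, with the regions overlapping. A second probe set was at the floor in the non-synaptic region and at 8.12 and 8.61 in the synaptic region, at least 2.08-fold higher, and 2 more were at the floor on all arrays. The brighter probe set of Kcnn4 was at the floor throughout the synaptic region and read 8.49 and 7.63 in the other, at least 1.68-fold lower. Its other probe set was at the floor on all arrays. Kcng1, Kcnk13, Kcnip1 and Kcnh2 were chosen for mention after their values were seen.

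The 3 non-coding members include Kcnq1ot1, an imprinted antisense RNA at the Kcnq1 locus. Its 3 tested probe sets gave -0.02, 0.12 and 0.48, and the last read 10.93 and 11.13 against 10.44 and 10.65 (unadjusted p = 0.0942, limma adjusted p = 0.9999). Kcnmb4os1 and Kcnmb4os2 lay below the filter.

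The median absolute log2 difference over the 56 probe sets was 0.38 between the synaptic arrays and 0.36 between the non-synaptic arrays, close to the 0.35 and 0.30 over all probe sets tested. It was 0.32 and 0.30 between regions at the same replicate number, against 0.20 and 0.16 over all. For 26 of the 56, or 46.4%, the arrays of a region lay farther apart in sum than the regions did, against 61.4% of all probe sets tested.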

How the data were processed

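The authors deposited 1 intensity per probe set on a linear scale for 4 one-colour arrays, with the trimmed mean alike on each. No source used here names the scanner, summary method or scaling. A floor was set at 158.891, the 20th percentile of the intensities, before the log2 step. Probe sets with a mean log2 value under the 40th percentile and 64 control probe sets were left out. The regions were compared with limma 3.58.1 (lmFit, eBayes with an intensity trend, 2-sided, 2 residual degrees of freedom, a prior worth 3.16) in R 4.3.3, with Benjamini-Hochberg adjustment over 26480 probe sets and a threshold of 0.05. With 2 arrays per region the smallest p of an exact permutation test is 0.33, and precision is limited by this number of arrays.

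Gene symbols came from the platform annotation, which can be old, through the Entrez identifier and RefSeq tables. A gene was read from its probe set with the highest mean, and others are given where they differ. Named were members with an unadjusted p under 0.05, or with the regions apart by at least 1.5-fold, on a tested probe set, members of the lists for muscle fibres, myelinated nerve and vessels, and up to 3 measured genes of each class with the largest difference. Of 45 such genes 29 were measured. The members and lists were chosen with earlier results of these data known. The replicate number is the last digit of the sample titles. The fit was tested on simulated data.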

Additional observations from a re-analysis of the deposited data

How the results depend on the processing

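No Kcn probe set passed over all probe sets in the main setting, and Kcne1l alone became 1 passing probe set with median centring and without either synaptic array (0 to 1 over the arrays left out). The replicate block, with the last digit of the titles as a term, gave 4 Kcn probe sets higher, 1 of Kcne1l (limma adjusted p = 1.95e-06) and 3 of Kcna1 (limma adjusted p = 5.87e-05 for the brightest), and 56 higher and 18 lower in all, in place of 1 and 2. Nothing in the labels says that the number pairs arrays, while deviations from the region means of arrays with the same number correlated at 0.63. Over all probe sets, the higher count was 6 with median centring, 3 under a 60th percentile filter, 0 with no filter and 0 with no intensity trend, and 0 to 6 without single arrays. The lower count was 0 with no filter or no trend, 1 with the floor at the 40th percentile, and 0 to 5 without single arrays. Kcn probe sets higher at an unadjusted p under 0.05 numbered 5 under the 60th percentile filter, where 26 were tested, and those lower numbered 2 with no filter, where 167 were tested, and 0 to 1 without single arrays. Those apart and higher numbered 29 of 167 with no filter, 7 of 26 with the higher filter and 23 to 31 without single arrays. Those apart and lower numbered 9 of 167 with no filter, 4 of 57 with quantile normalization and 11 to 14 without single arrays. Without single arrays, 54 to 61 were tested. These counts have no share over all probe sets beside them, so they are not set against a background. The family's median was 0.00 with no filter, 0.062 with 1 probe set per gene and 0.12 to 0.24 without single arrays. Of the 29 named genes measured, 16 changed sign in some fit, none of them past the threshold in any fit, and 13 kept their sign. The 13 were Kcne1l, Kcna1, Kcna2, Kcnk1, Kcnk2, Kcnmb4, Kcnq5, Kcna4, Kcnj12 and Kcnt1, all above 0, and Kcna5, Kcnn1 and Kcnn2, below 0. Without single arrays the differences ran from -0.13 to 0.18 for Kcna6, -0.26 to 0.20 for Kcna7, -1.24 to 0.078 for Kcnab1, -0.26 to 0.65 for Kcnc1, -1.37 to 0.90 for Kcnc4, -0.10 to 0.70 for Kcne4, -0.072 to 0.36 for Kcnh3 and -0.46 to 0.50 for Kcnj11. They ran from -0.17 to 0.29 for Kcnj3, -0.090 to 0.26 for Kcnj6, -0.35 to 0.39 for Kcnj8, -0.40 to 0.23 for Kcnk16, -0.19 to 0.22 for Kcnk6, -0.10 to 0.49 for Kcnma1, -0.70 to 0.22 for Kcnq1 and -0.25 to 0.21 for Kcnq1ot1. Quantile normalization gave -0.0058 for Kcnj11. The mean of a gene's tested probe sets turned the sign for Kcnc1 (-0.022), Kcnma1 (-0.16), Kcnn1 (0.58) and Kcnq1ot1 (0.20), and was 1.52 for Kcna1. Where a filter or a left-out array changed a count, the number of probe sets or arrays changed by construction. For median centring, quantile normalization, the trend and the raised floor the cause was not tested. Weak signal near the floor limits 111 of the 167 members.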
